A study of Bos taurus with 4 samples.

Results

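The fibrillar collagen transcripts COL1A1, COL1A2, COL3A1 and COL11A1 and the transcript of the matrix protein SPARC were followed in subcutaneous fat of Qinchuan cattle. They are 5 of the 36373 UniGene clusters, groups of transcript sequences taken as 1 gene each, in which reads were counted. A cluster was taken as a member where the header of its deposited sequence names the gene. The 5 genes were picked by their measured levels in these same libraries, so their levels and ratios are a description and carry no test. ATFB was a library from fetuses of 200 to 250 days, and ATAB, ATAH and ATAS were libraries from adult bulls, adult heifers and adult steers (castrated males) of 18 to 24 months. These ages are those of the labels. The methods give a single age inside each range and call the heifers cows where sample collection is described. Each library was made from poly(A) RNA pooled over 5 animals, so each group is 1 library and the spread between animals was not measured.

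Fibrillar collagens are built as long chains in which glycine recurs at a fixed spacing. The chains wind around each other into a triple helix, and the propeptides that flank the helix are trimmed off outside the cell. The trimmed molecules assemble side by side into the fibrils that give connective tissue its tensile strength. COL1A1 and COL1A2 encode the chains of type I collagen, the main fibril of skin, bone, tendon and the septa of fat. COL3A1 encodes the chain of type III collagen, which joins type I in the fibrils of distensible tissue. COL11A1 encodes a chain of type XI collagen, a minor component best known from cartilage, where it lies inside type II fibrils. SPARC is a secreted acidic glycoprotein that binds collagen and calcium, and in adipose tissue it is made by both fat cells and stromal cells.

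The coding parts of the 5 clusters set the collagens apart from SPARC. The longest unbroken run of Gly-X-Y triplets, counted as glycine codons at every 3rd codon, was 338 triplets in COL1A1, 340 in COL1A2, 343 in COL3A1 and 338 in COL11A1, against 2 in SPARC. This run took 69.3%, 74.7% and 70.1% of the codons of COL1A1, COL1A2 and COL3A1, and 55.8% of the 1818 codons of COL11A1, which has the longest coding part of the 5. The first 8 triplets of each run are printed 5′ to 3′ below as deposited, with the glycine codon that opens each triplet in capitals (other glycine codons stay in lower case), because this repeat is the feature that the 4 collagens share and that the choice of genes did not use.
COL1A1: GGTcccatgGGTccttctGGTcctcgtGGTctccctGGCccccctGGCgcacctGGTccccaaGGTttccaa
COL1A2: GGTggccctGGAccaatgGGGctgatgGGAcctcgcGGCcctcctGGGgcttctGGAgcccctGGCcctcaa
COL3A1: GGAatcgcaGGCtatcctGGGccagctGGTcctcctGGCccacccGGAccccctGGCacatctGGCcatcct
COL11A1: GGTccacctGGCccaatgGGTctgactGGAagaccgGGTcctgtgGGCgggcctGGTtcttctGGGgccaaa
These stretches begin at base 651 of the COL1A1 cluster, base 366 of COL1A2, base 577 of COL3A1 and base 1931 of COL11A1, all inside the coding part. For SPARC the 24 codons that hold most codons for aspartate and glutamate are shown, with those 10 codons in capitals, since its acidic N-terminal part is what its name refers to. They begin at base 212 of the cluster.
SPARC: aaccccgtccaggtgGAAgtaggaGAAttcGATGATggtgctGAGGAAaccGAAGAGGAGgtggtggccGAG

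Between 15.3 and 16.1 M reads were counted per library, so the members other than COL11A1 rested on 29107 reads or more in every library. Levels are given as RPKM, reads scaled to the length of the cluster and to the counted reads of the library, which is the scale on which genes of different length can be set side by side. A ratio between libraries was called past 2-fold where its log2 was at least 1 in size, among clusters with at least 20 reads in both libraries together. Intervals are exact 95% Clopper-Pearson intervals and cover counting error only. Since each condition was measured in 1 library, no p-value is given for any member.

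COL1A1 had 4167 RPKM in fetuses, 3412 in bulls, 639 in heifers and 1034.5 in steers. The fetal and the bull library were high and the heifer and the steer library low. COL1A1 held the most reads of any cluster in ATFB, with 302434 reads or 1.98% of the library, and ranked 4 in bulls, 24 in heifers and 9 in steers. COL1A2, whose product is found with that of COL1A1 in the type I molecule, had 3240 RPKM in fetuses, 1866 in bulls, 403 in heifers and 572 in steers. Its order over the 4 libraries was that of COL1A1.

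COL3A1 had 1980 RPKM in fetuses, 2903 in bulls, 766 in heifers and 676 in steers. It was thus highest in the bull library and not in the fetal library, and its lowest value was in the steer library rather than in the heifer library. SPARC had 4522 RPKM in fetuses, 8904 in bulls, 5349 in heifers and 5633 in steers. In contrast to the collagens, SPARC was lowest in the fetal library, and it ranked 3 by reads in each adult library.

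COL11A1 was on another scale. It had 2447 reads in fetuses, 2 in bulls, 7 in heifers and 64 in steers, which is 21.8, 0.0169, 0.0612 and 0.561 RPKM. Reads covered 90.55% of its 7336 bases in the fetal library, 2.45% in bulls, 8.27% in heifers and 42.65% in steers, while the other members were covered over at least 99.03% of their length in every library. The intervals of its share of reads overlapped between ATAB and ATAH only, so the order of those libraries was not resolved at this depth.

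**Figure D1:**
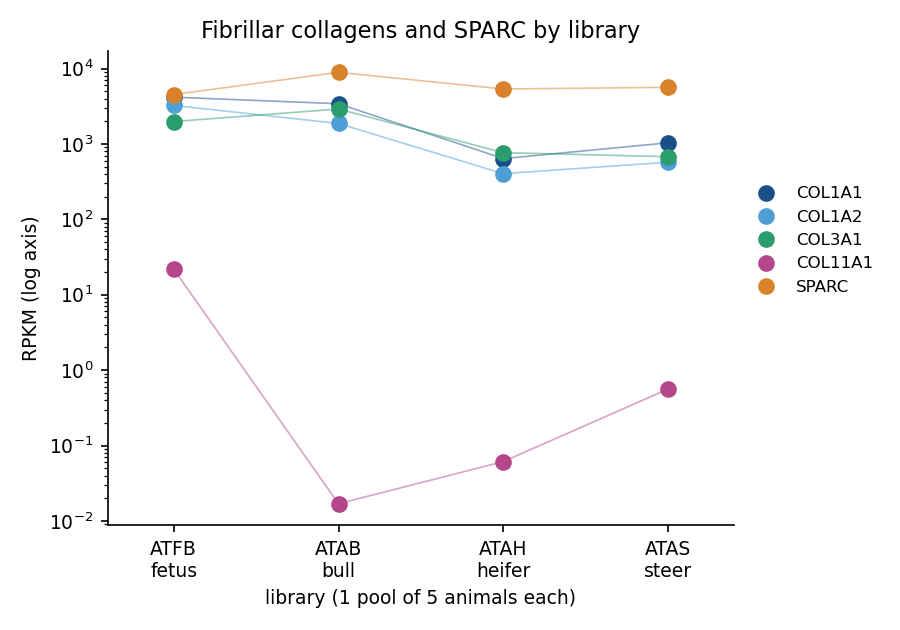
RPKM (log axis) of the 5 genes in the fetal (ATFB), bull (ATAB), heifer (ATAH) and steer (ATAS) library, 1 point per library; the lines only join the points of a gene. COL1A1 and COL1A2 lie at 1866 or more in ATFB and ATAB and at 1034.5 or less in ATAH and ATAS, SPARC lies between 4522 and 8904, and COL11A1 is at 21.8 in ATFB and at 0.561 or less in the adults.

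Together the 5 clusters took 5.56% of all counted reads in fetuses, 6.01% in bulls, 2.08% in heifers and 2.36% in steers. The fetal and bull libraries were thus alike in this sum, but not in its makeup. COL1A1, COL1A2 and COL3A1 made up 4.56% of the fetal and 4.07% of the bull reads, against 0.908% of the heifer and 1.13% of the steer reads. SPARC alone made up 0.988% in fetuses, 1.95% in bulls, 1.17% in heifers and 1.23% in steers, so that in ATAH and ATAS it held more reads than the 3 collagens together. The share of COL11A1 was 0.016% in ATFB. The bar plot of read shares shows these parts stacked for each library.

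**Figure D2:**
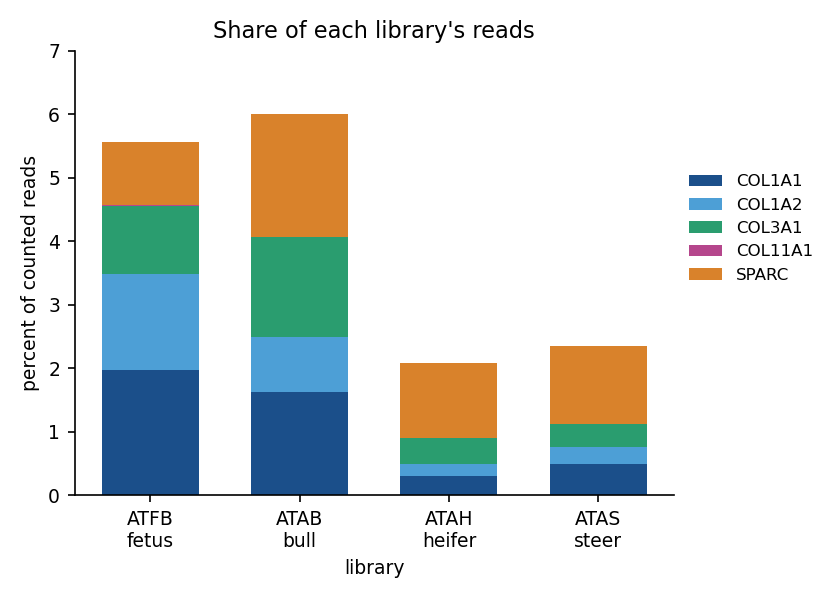
Percent of the counted reads of each library on the 5 clusters, stacked; COL11A1, at 0.016% or less, is too small to see. The bars reach 5.56% in fetuses, 6.01% in bulls, 2.08% in heifers and 2.36% in steers, and SPARC is the largest part in the 3 adult libraries.

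The ratio of the members to each other within a library does not depend on the depth or scaling of that library. The RPKM of COL1A1 over that of COL1A2 was 1.29 (interval 1.28 to 1.29) in fetuses, 1.83 (1.82 to 1.84) in bulls, 1.58 (1.56 to 1.61) in heifers and 1.81 (1.79 to 1.83) in steers. The fetal library had the lowest value and the intervals of ATAB and ATAS overlapped. COL3A1 over COL1A1 was 0.475 in fetuses, 0.851 in bulls, 1.2 in heifers and 0.654 in steers. Type III transcript exceeded COL1A1 transcript per length in the heifer library alone. SPARC over COL1A1 was 1.09 in fetuses, 2.61 in bulls, 8.37 in heifers and 5.45 in steers. COL11A1 over COL1A1 was 0.00524 in ATFB and 0.000542 in ATAS, and lower in the other two libraries.

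**Figure D3:**
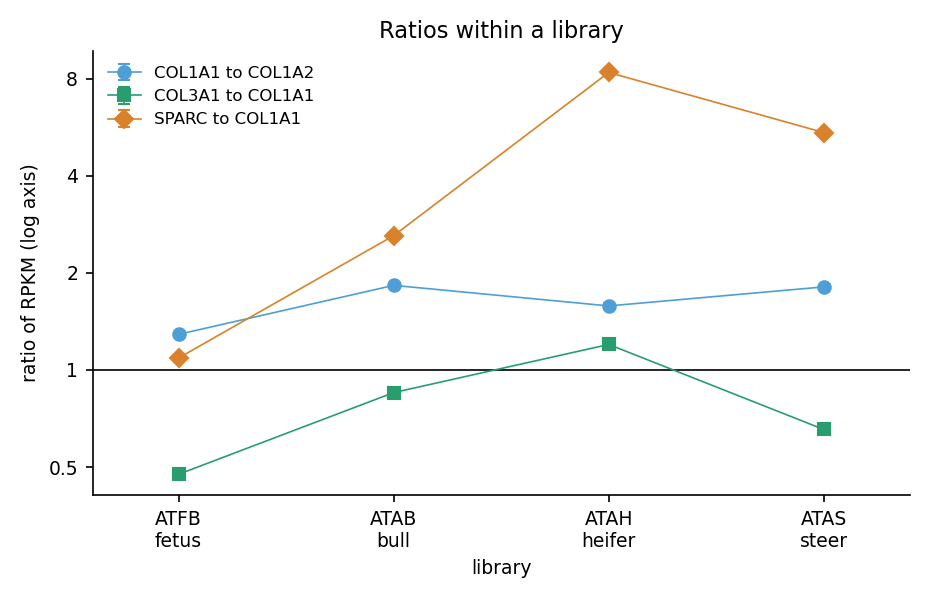
Ratio of RPKM (log axis) between pairs of genes in each of the 4 libraries, with exact 95% intervals of counting error that are smaller than the points; the lines only join the points of a ratio. SPARC over COL1A1 runs from 1.09 in ATFB to 8.37 in ATAH, COL3A1 over COL1A1 from 0.475 in ATFB to 1.2 in ATAH, and COL1A1 over COL1A2 from 1.29 in ATFB to 1.83 in ATAB.

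The first question of the design was how fetal fat differs from adult fat. ATFB enters all 3 of these comparisons, so they are not independent of each other. The sex of the fetuses is not given. The Y-linked gene DDX3Y had 0 reads in ATFB, 234 in ATAB and 298 in ATAS. Sex and age therefore cannot be told apart against the bull and the steer library. Against the bull library, 1 of the 5 members was past 2-fold, COL11A1, lower in ATAB. The background for that direction was 23.4% of the 22474 clusters tested, and 17.5% were past 2-fold higher in ATAB. COL11A1 was 1290-fold lower in ATAB (interval 358 to 10700), a ratio that rests on 2 reads. COL1A1 was 1.22-fold and COL1A2 1.74-fold lower in ATAB, while COL3A1 was 1.47-fold and SPARC 1.97-fold higher. SPARC passed the limit under 3 of 4 other scalings of the libraries, at a log2 ratio of 1.11 to 1.15, and COL1A2 passed it at -1.03 when libraries were scaled by the beta-actin gene ACTB.

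Against the heifer library, 4 of the 5 members were past 2-fold and lower in ATAH, where the background was 17.9% of 23084 clusters (24.3% were higher). COL1A1 was 6.52-fold lower in ATAH, COL1A2 8.03-fold, COL3A1 2.59-fold and COL11A1 357-fold (interval 173 to 888). Of all clusters tested, 3.18% had a lower ratio than COL1A1, 2.33% than COL1A2 and 11.6% than COL3A1. SPARC was 1.18-fold higher in ATAH on library totals, a direction that reversed when ACTB set the scale.

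Against the steer library, the same 4 members were past 2-fold and lower in ATAS, where the background was 18.8% of 23092 clusters (26.2% were higher). COL1A1 was 4.03-fold lower in ATAS, COL1A2 5.66-fold, COL3A1 2.93-fold and COL11A1 38.9-fold (interval 30.4 to 50.7). SPARC was 1.25-fold higher. On library totals, the median log2 ratio over all clusters tested was -0.17 for ATAB, 0.1 for ATAH and 0.14 for ATAS, each against ATFB.

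Among the adults, the design compared the sexes and, through bulls and steers, castration. In heifers against bulls, COL1A1, COL1A2 and COL3A1 were past 2-fold and lower in ATAH, which is 3 of the 4 members with enough reads, where the background was 3.34% of 22451 clusters (11.7% were higher). The ratios were 5.34-fold for COL1A1, 4.63-fold for COL1A2 and 3.79-fold for COL3A1, and 0.45%, 0.606% and 0.891% of clusters had a lower ratio. SPARC was 1.66-fold lower in ATAH, which became a log2 ratio of -1.01 with TMM factors and -1.02 with DESeq2 size factors. COL11A1, with 7 and 2 reads, was under the read minimum and its interval of 0.69 to 35.8 around a ratio of 3.63 included no change.

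In steers against bulls, the same 3 collagens were past 2-fold and lower in ATAS, where the background was 4.61% of 22388 clusters, and COL11A1 was past it and higher, where the background was 15.4%. COL1A1 was 3.3-fold, COL1A2 3.26-fold and COL3A1 4.29-fold lower in the steer library. SPARC was 1.58-fold lower. COL11A1 was 33.2-fold higher in ATAS (interval 8.83 to 280), from 64 reads against 2.

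In steers against heifers, COL11A1 alone was past 2-fold, 9.16-fold higher in ATAS (interval 4.2 to 23.7), where the background was 5.03% of 22825 clusters higher and 5.0% lower. COL1A1 was 1.62-fold and COL1A2 1.42-fold higher in ATAS, COL3A1 was 1.13-fold lower, and SPARC was 1.05-fold higher. The plot of ratios shows the groups: the points of COL1A1, COL1A2 and COL3A1 lie beyond the 2-fold line in each of the 4 comparisons that set ATAH or ATAS against ATFB or ATAB, and inside it in the other two comparisons.

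**Figure D4:**
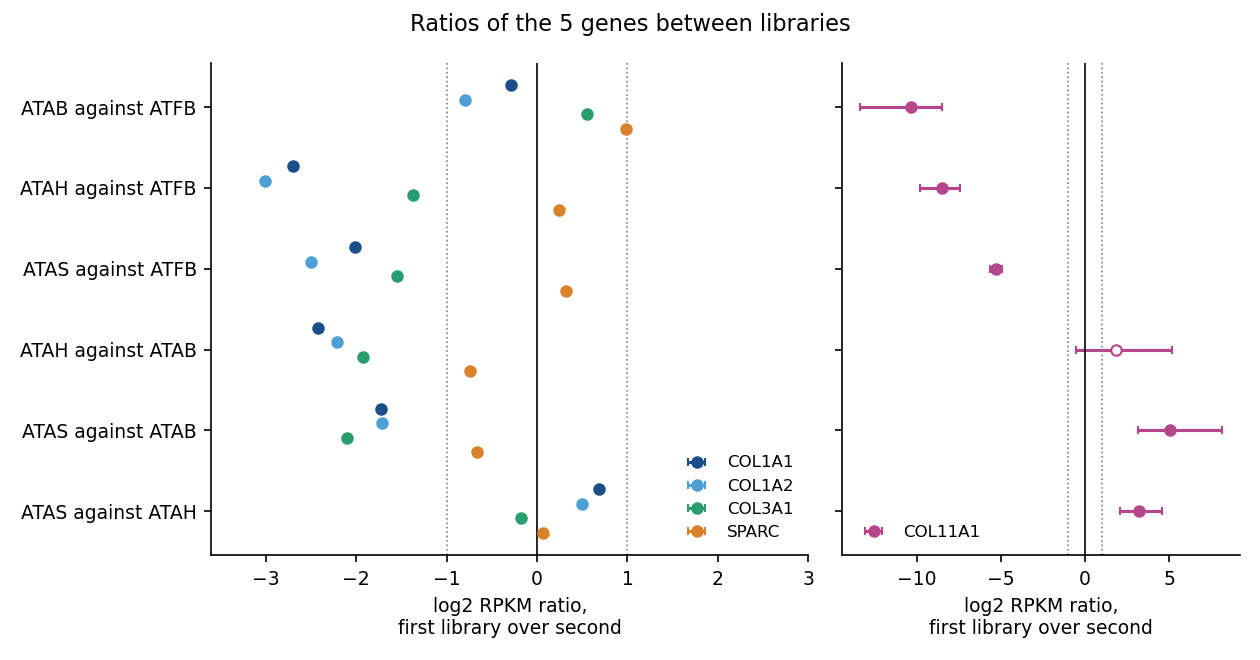
Log2 RPKM ratio of each gene in the 6 pairs of libraries, with exact 95% intervals of counting error (smaller than the points in the left panel); dotted lines mark 2-fold, the open point is under the read minimum, and the 2 panels have different axes. SPARC stays inside the 2-fold lines in all 6 pairs, and COL11A1 is lower than in ATFB in each of the 3 adult libraries, with log2 ratios of -10.34 to -5.28.

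The genes whose levels over the 4 libraries were most like those of each member were sought among 2822 named genes with at least 500 reads in all. Likeness was the Euclidean distance between log2(RPKM + 0.1) profiles after each had its mean subtracted, over 4 libraries, where 0 is the same profile. Nearest to COL1A1 were COL21A1 at 0.17, RRM2 at 0.2 and COL1A2 at 0.41. COL21A1, a collagen of the class that lies on fibril surfaces, had 10.3, 8.04, 1.31 and 2.12 RPKM in ATFB, ATAB, ATAH and ATAS, and RRM2, a subunit of ribonucleotide reductase, had 7.11, 5.55, 1.18 and 1.78.

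Nearest to COL1A2 were COL21A1 at 0.33, C1QTNF2 at 0.37 and the signalling ligand WNT2 at 0.4. Nearest to COL3A1 were LUM at 0.66, HEBP2 at 0.67 and RRM2 at 0.88, so that no gene matched COL3A1 as closely as the type I chains were matched. LUM, the collagen-binding proteoglycan lumican, had 342, 265, 94.0 and 89.5 RPKM, and unlike COL3A1 it was highest in ATFB. Nearest to COL11A1 were COL11A2 at 1.34, COL2A1 at 1.69 and P4HA3 at 1.82. Nearest to SPARC were PRRC1 at 0.21, FLRT3 at 0.22 and FUNDC2 at 0.3, none of them a matrix gene. Among the members themselves, COL1A1 lay 0.41 from COL1A2, 0.98 from COL3A1, 2.24 from SPARC and 5.22 from COL11A1.

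The other genes of collagen fibrils were compared between ATFB and the 3 adult libraries with edgeR's quasi-likelihood test over all 25584 clusters with enough reads. In this fit the spread comes from the adult libraries alone, which differ in sex and castration, and the single fetal library is assumed to vary like them. Of 89 list genes tested, 21 were higher and 11 lower in ATFB at an adjusted p of 0.05 or less, against a background of 6.64% of clusters higher and 8.04% lower. All lists were written with earlier results of these data known, so their difference from this background is a description and carries no test. The calls of the whole fit depend on the bull library being included. Without it, edgeR called 0 of all 25146 clusters tested, where 9464 had an unadjusted p under 0.05, and so 0 of the 89 list genes, where 48 did, against 42 in the full fit.

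The remaining fibrillar collagens split. Of 4 measured, 2 were higher and 1 lower in ATFB. COL2A1, the chain of the cartilage collagen type II, had 1459, 2, 14 and 10 reads in ATFB, ATAB, ATAH and ATAS and was 171-fold higher in ATFB (edgeR adjusted p = 0.00163). COL11A2, a partner chain of COL11A1 in type XI collagen, had 992, 11, 12 and 49 reads and was 42.2-fold higher (adjusted p = 0.00548). COL2A1, COL11A2 and COL11A1, the measured chains of types II and XI, were all highest in the fetal library. COL11A1 was picked by its levels and the other chains were nearest to it in profile, so this likeness is a description. COL5A3, a chain of the minor fibrillar collagen type V, went the other way, with 30.1 RPKM in ATFB and 150.5, 132 and 90.3 in ATAB, ATAH and ATAS (adjusted p = 0.0238). COL27A1 had 7.45, 3.93, 5.265 and 1.34 RPKM and did not pass (adjusted p = 0.231).

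Among enzymes and chaperones that fold and modify procollagen, 5 of 16 were higher in ATFB and none lower, with a list median log2 of 0.65 against -0.09 over all clusters. The 4 most abundant genes of the list did not pass. SERPINH1, the collagen chaperone HSP47, had 555, 530, 323 and 232 RPKM in ATFB, ATAB, ATAH and ATAS (adjusted p = 0.368). P4HB, the beta subunit of prolyl 4-hydroxylase, had 315.5, 279, 203 and 149 (adjusted p = 0.33). Both were thus, like COL1A1, about level between the fetal and bull library and lower in heifers and steers. CRTAP, part of the prolyl 3-hydroxylation complex, had 75.6, 66.9, 37.5 and 38.8 RPKM (adjusted p = 0.274), and the lysyl hydroxylase PLOD3 had 46.4, 47.4, 46.9 and 37.9 (adjusted p = 0.893). The alpha subunit gene P4HA3, near COL11A1 in profile, had 41.0, 1.20, 0.549 and 2.78 RPKM, a pattern for which it was picked and which therefore carries no test here. It is still 1 of the 5 genes counted as higher in this list, and of the 21 over all lists.

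Of 10 genes for propeptide cleavage and cross-linking, 2 were higher and 1 lower in ATFB. PCOLCE, which enhances removal of the C-terminal propeptide, had 396, 198, 143 and 172.5 RPKM and was 2.31-fold higher (adjusted p = 0.0443). Its relative PCOLCE2 had 140, 107, 134 and 209 (adjusted p = 0.889). The cross-linking oxidase LOXL1 had 99.75, 61.4, 31.3 and 16.4 RPKM (adjusted p = 0.119) and ADAMTS2, which trims the N-terminal propeptide, had 50.3, 51.0, 33.8 and 34.2 (adjusted p = 0.533).

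Proteins that coat or link fibrils held the largest number of calls, 7 of 19 higher and 1 lower in ATFB, with a list median log2 of 1.19. DCN, the proteoglycan decorin that sits on type I fibrils, had 3916 RPKM in ATFB and 1115, 755 and 1155 in ATAB, ATAH and ATAS, a 3.88-fold difference (adjusted p = 0.0134). POSTN, the matricellular protein periostin, had 741 RPKM in ATFB and 14.5, 16.25 and 13.1 in the adults, 50.7-fold higher in ATFB (adjusted p = 0.000376). In contrast to COL1A1, neither was high in the bull library. LUM did not pass (adjusted p = 0.183), nor did fibronectin (FN1), with 175, 361, 158 and 244 RPKM (adjusted p = 0.457), which like COL3A1 and SPARC was highest in ATAB.

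Of 9 non-fibrillar collagens of several kinds, labelled other interstitial collagens in the plot of the lists, 1 was higher and 2 lower in ATFB. The list median log2 was 0.02. The 4 most abundant showed no difference past the threshold. The microfibril chain COL6A1 had 592, 525, 356 and 471 RPKM (adjusted p = 0.464) and COL6A2 had 273, 316, 216 and 278 (adjusted p = 0.98). COL18A1 had 67.25, 94.99, 154 and 149 (adjusted p = 0.136) and COL15A1 had 75.3, 105, 91.8 and 89.3 (adjusted p = 0.499). The range over the 4 libraries was thus narrower for these than for COL1A1, COL1A2 or COL3A1.

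In the SPARC family, 1 of 4 measured relatives was lower in ATFB and none higher. SMOC1, a calcium-binding relative of SPARC, had 12.7 RPKM in ATFB and 122, 105 and 115 in ATAB, ATAH and ATAS (adjusted p = 0.00579). Its order of libraries, from ATAB through ATAS and ATAH to ATFB, was that of SPARC. FSTL1 had 544, 297, 131 and 179.5 RPKM (adjusted p = 0.064), SPOCK2 had 1.56, 1.002, 10.9 and 5.19 (adjusted p = 0.25) and SPOCK1 had 20 reads or fewer in every library (adjusted p = 0.833).

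Of 10 genes of collagen breakdown and its inhibitors, 3 were higher and 2 lower in ATFB. MMP2, a gelatinase that degrades unfolded collagen, had 813, 209, 240.5 and 300.5 RPKM and was 3.25-fold higher in ATFB (adjusted p = 0.0178). CTSK, the collagen-degrading cathepsin K, had 409, 136, 113 and 130 and was 3.24-fold higher (adjusted p = 0.0137). The protease inhibitor TIMP3 had 87.9, 220.5, 274 and 318.5 RPKM and was lower in ATFB (adjusted p = 0.0329), while TIMP2 had 780, 524, 419.5 and 661 and did not pass (adjusted p = 0.316).

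Of 7 collagen receptors, 3 were lower in ATFB and none higher. CD36, which binds collagen and is also the fatty acid receptor of fat cells, had 181 RPKM in ATFB and 926, 1097 and 1111 in ATAB, ATAH and ATAS (adjusted p = 0.00957). The receptor tyrosine kinase DDR1 had 5.38, 36.8, 52.7 and 43.7 RPKM (adjusted p = 0.00683), its relative DDR2 had 23.2, 28.6, 34.6 and 34.2 (adjusted p = 0.328), and the integrin subunit ITGB1 had 103, 87.6, 111 and 125 (adjusted p = 0.912). Among 10 inducers of collagen transcription, TWIST1 was the single gene called, with 39.4 RPKM in ATFB and 11.6, 18.6 and 14.7 in the adults (adjusted p = 0.0332). TGFB1 had 25.45, 27.5, 20.6 and 28.2 RPKM (adjusted p = 0.999), its receptor TGFBR2 had 67.8, 45.3, 35.8 and 52.9 (adjusted p = 0.248), and CTGF had 89.7, 52.8, 117 and 137.5 (adjusted p = 0.82).

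**Figure D5:**
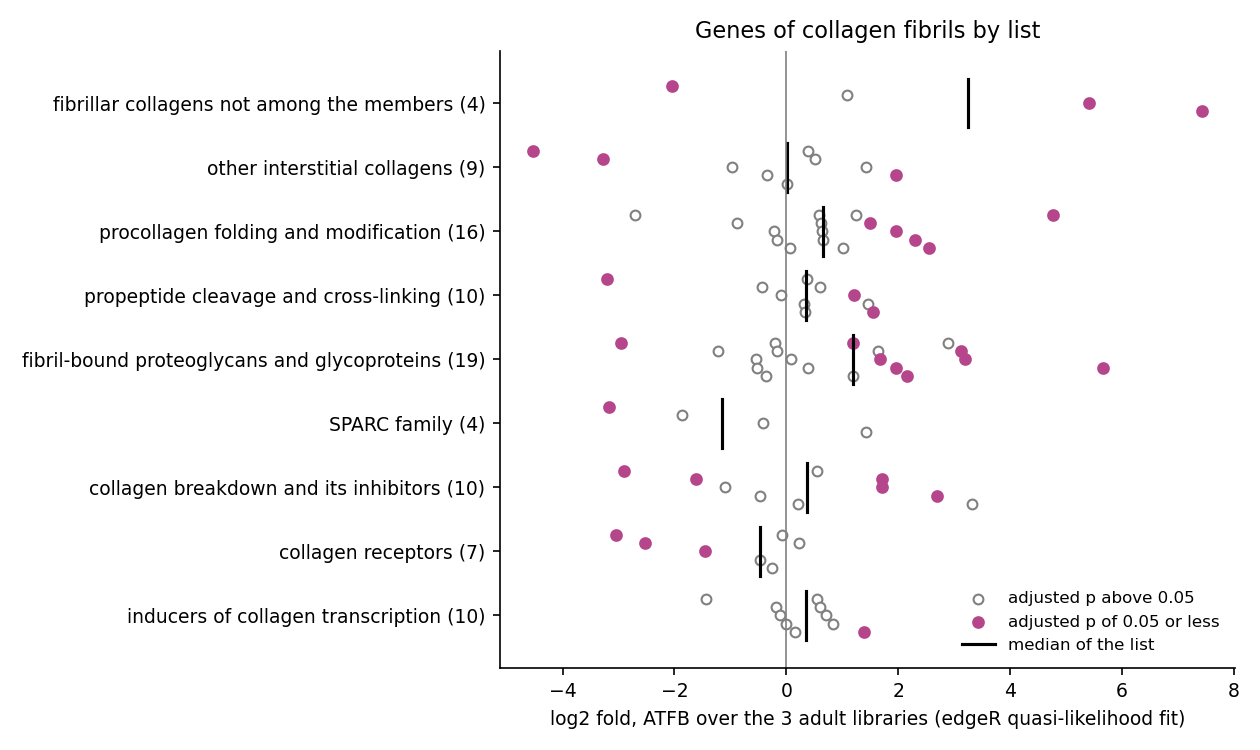
Log2 fold of ATFB over the 3 adult libraries from the edgeR fit for each measured gene of 9 lists (number tested in brackets); filled points have an adjusted p of 0.05 or less, open points do not, and bars mark list medians. The fibril-bound list has 7 filled points on the fetal side and the receptor list 3 on the adult side. The folding list has 5 on the fetal side, P4HA3 among them, and no filled point on the adult side.

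Markers of some cell types differed between the fetal and the adult libraries. The 9 measured fat cell markers summed to 894 RPKM in ATFB and 4983 to 6146 in the adults, none at 0, and the 9 fibroblast and fat progenitor markers to 7117 in ATFB and 3058 to 4194 in the adults, with DLK1 at 0 reads in ATAB. VIM alone gave 5248 RPKM of the fetal sum, and PDGFRB went the other way, with 32.5 RPKM in ATFB and 56.6 to 97.7 in the adults. That second list shares FAP, LUM and DPT with the lists above. In whole tissue, fewer cells of a type and less RNA per cell cannot be told apart. Between the bull library and the heifer and steer libraries, where COL1A1 differed by 5.34-fold and 3.3-fold, the fibroblast sum was 4194 RPKM in bulls, 3058 in heifers and 3890 in steers. The filament gene VIM alone gave 3432, 2409 and 3117 RPKM of it. The other markers split: PDGFRA, LUM and DPT were highest in bulls of the 3, while PDGFRB (56.6, 70.65 and 97.7 RPKM), CD34 (111.5, 198 and 215), THY1 (217, 219 and 283) and DLK1 (0 reads, 40 and 19) were lowest there, and FAP had 16.1, 10.3 and 16.3 RPKM. The part of these markers in the levels of the collagens was not tested.

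Beside COL11A1, the 7 measured cartilage markers summed to 20.9 RPKM in ATFB and 1.76 to 11.75 in the adults. COL2A1 made up 19.3 RPKM of the fetal sum. Without it the other markers of cartilage summed to 1.635 in fetuses, 2.73 in bulls, 1.58 in heifers and 11.6 in steers, with COL9A1 at 2 reads in ATFB and 0 in each adult library, and ACAN, the cartilage proteoglycan aggrecan, at 49, 15, 11 and 20 reads. COMP, a matrix protein of cartilage and tendon, had 30, 96, 47 and 434 reads and gave 11.3 RPKM of the steer sum. The 2 tendon markers, MKX and THBS4 (the latter also on the fibril-bound list), summed to 112 RPKM in fetuses, 3.31 in bulls, 8.63 in heifers and 26.75 in steers. Like COL11A1, they were highest in ATFB and, among the adults, in ATAS. Red cell markers (2 measured) summed to 2390 RPKM in ATFB and at most 1.54 in the adults, both at 0 reads in ATAS. Skin markers summed to 18.4 in ATFB and 2.40 to 3.22 in the adults, where KRT13 and LOR were at 0. Their part in the levels of COL11A1 was not tested.

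The sums of the remaining lists were 8.14 RPKM in ATFB and 6.70 to 68.5 in the adults for bone, where SOST alone gave 65.95 in ATAH, 29.96 and 53.1 to 62.9 for skeletal muscle, 547 and 387 to 721 for endothelium, 393 and 314 to 341 for smooth muscle, and 104 and 178 to 288 for leukocytes. The Y-linked gene DDX3Y had 0, 234, 2 and 298 reads in ATFB, ATAB, ATAH and ATAS, where a count of 0 allows up to 3 reads. By this gene ATFB lay near the heifer library and far below the libraries from males. Sex and age cannot be told apart between ATFB and the libraries from males.

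Other clusters carried stretches of the members' sequence, at 95% identity or more over at least 90 bases. The deposited counts are headed as unique reads, while the methods describe alignment to the genome, and how reads were given to clusters is not stated. Whether the members' counts miss reads there is therefore unknown, and the counting is not stated to use strand. For COL1A1, COL11A1 and SPARC the reads on these clusters came to at most 0.531% of the member's own count in any library. For COL1A2 it was 1.39% in ATFB and 0.238% to 0.428% in the adults, all on an unnamed cluster of 177 bases that matches the transcript past the end of its coding part. For COL3A1 it was 0.328% in ATFB and 0.0506% to 0.121% in the adults.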

How the data were processed

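The authors sequenced poly(A) RNA pooled from 5 animals per group. Per their methods, clean reads were aligned to the cattle genome with SOAPaligner, first without and then with few mismatches, and reads with a single match were kept; the processing notes name CASAVA, with no version. The deposited tables hold read counts on UniGene clusters, the percent of each cluster covered by reads, and RPKM, which equals counts divided by cluster length and by the counted reads of the library. How reads were assigned to clusters and the UniGene build are not given in the sources used here, and chromosome positions were not used. Rows without reads were read as 0.

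The 5 members and all gene lists were chosen with earlier results of these data known. Symbols came from RefSeq accessions (annotation of ARS-UCD2.0; 3447 clusters) or the sequence headers (2230 clusters by a bracketed symbol and 82 by description), and the cluster with most reads stood for a symbol. Of each list every gene was counted and the 4 with the highest mean RPKM were named, all of them for the fibrillar collagens. P4HA3 was named as 1 of the 3 profiles nearest to COL11A1. A cluster was found for 92 of 122 list genes. The 3 nearest profiles per member left out symbols starting with LOC; with them, 1 gene changed, for COL3A1. Ratios used library totals (15274529 to 16148487 reads). A count of 0 entered a ratio as the floor of 3 reads. Tests used edgeR 4.0.16 (filterByExpr, glmQLFit, Benjamini-Hochberg over all clusters), with library totals as depth. Alternatives were TMM factors, DESeq2 size factors, ACTB as scaling gene, totals without the 10 clusters with most reads, no filter on low counts, a false discovery rate limit, the DESeq2 1.42.0 Wald test and leaving out each adult library. Sequence sharing was searched with blastn 2.17.0. The scripts were tested on simulated data.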

Additional observations from a re-analysis of the deposited data

Results flagged for a closer look

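COL3A1 differed from the fetal library in opposite directions in the adult libraries, with a log2 ratio of 0.55 in bulls, -1.37 in heifers and -1.55 in steers, each against ATFB. The difference between these ratios was not tested, since each group is 1 library.

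An unnamed cluster of 177 bases, which is in the count tables but carries no gene name, shares 178 aligned bases with COL1A2 at 99.4% identity. It held 3186 reads in fetuses, 597 in bulls, 90 in heifers and 98 in steers. Its log2 ratios against ATFB were -2.5 in bulls, -5.18 in heifers and -5.05 in steers, beside -0.8, -3.01 and -2.5 for COL1A2 itself.

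A second unnamed cluster shares 871 aligned bases with COL3A1 at 99.4% identity. It held 521 reads in fetuses, 296 in bulls, 51 in heifers and 26 in steers. Its log2 ratio of ATAB against ATFB was -0.9 (interval -1.11 to -0.69), where COL3A1 itself was at 0.55, so the sequences near COL3A1 did not all have their highest level in the bull library. Both matches are in the orientation opposite to the member's sequence, and the counting is not stated to use strand. Both clusters were flagged because they carry reads and share sequence with a member. Whether those reads come from the members' transcripts is unknown, and what sets the levels of the clusters apart was not tested.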

How the results depend on the processing

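The 30 log2 ratios of the 5 genes were recomputed under 4 other scalings of the libraries. In these 120 values the sign reversed once, for SPARC in ATAH against ATFB, at -0.03 with ACTB as scaling gene. Another 89 kept their sign but moved outside the interval of counting error, and 30 stayed inside it. The intervals therefore do not cover the choice of scaling. TMM factors moved every ratio by -0.29 to 0.18, depending on the pair. In ATAB against ATFB the count of genes past 2-fold went from 1 to 2 with TMM factors, DESeq2 size factors, ACTB and totals without the 10 largest clusters, by SPARC in all of these except ACTB, where it was COL1A2. The counts of the other 5 pairs stayed within 1.5 times, as did those without a filter on low counts. A false discovery rate limit of 0.001 changed no count, but it covers counting error only, which at these read numbers a 2-fold ratio passes in any case, so it says nothing of stability.

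Of the 89 list genes, edgeR called 32. The count was 32 with TMM or DESeq2 size factors, 29 without a filter and 36 with the DESeq2 Wald test. Leaving out 1 adult library gave 0 to 41 calls: 0 without ATAB, 29 without ATAH and 41 without ATAS. Over all clusters, the calls higher and lower in ATFB were 1698 and 2057 of 25584 in the full fit, 0 and 0 of 25146 without ATAB, 1584 and 2078 of 24874 without ATAH, and 2550 and 2881 of 25042 without ATAS. The cause of the loss without ATAB was not tested. No paired analysis was possible because each group has 1 library. Depth limits COL11A1 in ATAB and ATAH, at 2 and 7 reads. The spread between animals was not measured, and age and pool cannot be told apart.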

Other observations

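Other list genes that passed the edgeR test were outside the naming rule and were picked here after their values were seen. Higher in ATFB were the proteoglycans ASPN (9.14-fold) and BGN (3.2-fold), OGN (2.28-fold), the fibril-binding DPT (4.48-fold), the thrombospondin THBS4 (8.66-fold), the serine protease FAP (6.46-fold), the hydroxylases P4HA1 (3.9-fold), P3H2 (5.87-fold) and PLOD1 (2.83-fold), the chaperone FKBP10 (4.92-fold), the oxidase LOXL2 (2.92-fold) and the fibril-surface collagen COL12A1 (3.88-fold). Lower in ATFB were COL8A1, with 3.16 RPKM in ATFB and 25.2 to 40.9 in the adults, COL22A1, with 0.0795 and 0.96 to 3.21, THBS2, with 6.94 and 18.8 to 82.2, TIMP4, with 33.0 and 174 to 288, ITGA1, with 3.23 and 7.45 to 9.66, and TLL1, with 0.194 and 1.32 to 2.07.

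In the steer library against the heifer library, 7 of 19 fibril-bound genes were past 2-fold and higher in ATAS and 0 lower, where the background is 5.03% of clusters higher and 5.0% lower. They were TNC (log2 ratio 1.97), THBS4 (1.57), KERA (1.46), THBS1 (1.38), FMOD (1.36), TGFBI (1.34) and PRELP (1.07). COL1A1 and COL1A2 were at 0.69 and 0.5 in that pair. THBS4 is also 1 of the 2 tendon markers, which summed to 8.63 RPKM in ATAH and 26.75 in ATAS. The part of such markers in these ratios was not tested. With 1 library a group this is a description, with no test.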
